A study of Canis lupus familiaris and Eptesicus fuscus and Equus caballus with 6 samples.

Results

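Small RNAs of piRNA size (26 to 32 nt) from the adult testes of dog, bat and horse were compared by sequence, to find those listed in identical form in more than 1 species. A sequence was counted as shared when it, or its exact reverse complement, was listed in at least 2 of the 3 libraries, after identical entries of a library had been summed. Of 6804178 distinct sequences, 16831 (0.247%) were shared, and 6787347 were found in 1 species. The shared sequences were therefore chosen by measured values, namely by having at least 1 read in at least 2 libraries, and their number and their share of the reads are given as a description with no test.

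The 3 groups were testes of adult dog (Canis lupus familiaris), adult big brown bat (Eptesicus fuscus) and adult horse (Equus caballus), all snap frozen and untreated as far as the labels tell. Each gave 1 library from the small RNA fraction of total RNA, read as single-end reads of 50 nt. With 1 library per species no difference below has a replicate check, and all intervals are exact (Clopper-Pearson) 95% intervals, which cover counting error only, since reads are PCR copies without molecular identifiers. The whole testis was used, so fewer cells of a type and less RNA per cell cannot be told apart.

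piRNAs are small RNAs of the animal germ line that are bound by PIWI proteins and guide them to complementary RNA, above all to transcripts of transposable elements. Primary piRNAs tend to begin with U, and piRNAs made by reciprocal cutting of complementary transcripts tend to carry A at position 10. In the adult mammalian testis most piRNAs come from long precursor transcripts whose sequence is poorly conserved between orders, whereas tRNA, rRNA and other structural RNAs of the same size are nearly identical between mammals. A size window alone does not separate these kinds of RNA.

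The sequences below carry the main findings and are written 5′ to 3′ in the DNA letters of the libraries, with T for U. The files list many RNAs as their reverse complement, so each is printed on the strand that its length variants give, explained further on, or on the strand of the RNA that it matched. The first set holds sequences of all 3 species that matched no recognised RNA. Capitals mark bases 1 and 10 where the strand was called, and a sequence wholly in lower case had no agreed call.
trio A: TttgaagggAgcatttgtggactctgttc
trio L: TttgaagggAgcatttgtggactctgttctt
trio C: TgaaatgagTaattctgactttgaaggg
trio D: GatcagattTccaccactcatcttggtga
trio B: atgcagtgtggaacacgatgaactgaac
trio F: TaaagagttTggacttttaatctgttggc
trio G: GcacatacaCgacagatgtttgctcagaa
trio J: TtcctgtttTaaactgaatggcacgaaatt
trio K: CatcagaaaGcgtttacagtatcatgact

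The second set shows shared sequences that matched a protein-coding repeat, a transposable element or a snoRNA pattern. Capitals mark the matched stretch: the codons at the linker that joins C2H2 zinc fingers, a stretch of the L1 open reading frame 2, a stretch of the ancient SINE family MIR, or the ATGATG and CTGA elements of the C/D box pattern.
zinc finger A: gctcattcaacgtCAGAGAATTCACACTGG
zinc finger B: ttCACACTGGAGAACGGccttttgaatgc
zinc finger C: tcCACACTGGAGAGAAGccctatgaatgta
L1 ORF2 A: acagacacacagATCAATGGAACAgaa
MIR A: tactgagtgcttacTATGTGCCAGGCact
MIR D: tacagatgaaGAAACTGAGGCAcagaga
C/D box pattern A: accccATGATGgaactgaggatCTGAgg
C/D box pattern B: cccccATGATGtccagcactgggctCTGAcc

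The third set shows sequences of 2 species that matched no recognised RNA, with capitals at bases 1 and 10 where the strand was called. They lead their pair of species, or were the most read of their kind in dog or horse.
dog-horse E: GagcatcagTttctgcatctgtaaaatgg
dog-horse F: TtggactttAtcctctaagcaatggggagt
dog-horse G: TgtgaaatgAatgaatgaatgaatcgatc
dog-horse H: TacagatgaGaaaactgaggcccagaga
dog-horse J: AatcagacaTggatcctgccctcgagga
dog-bat A: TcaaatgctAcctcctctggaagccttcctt
dog-bat B: ctgaaatgaagagaatactcattgctgatc
bat-horse A: GcaggatctAcatcaactactacgacatga
bat-horse B: TgagttgaaGagatatgagaataggcattc

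The fourth set gives structural RNA fragments that hold many of the shared reads, with the matched stretch in capitals.
tRNA-Gly-GCC A: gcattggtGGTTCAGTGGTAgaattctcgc
tRNA-Gly-GCC B: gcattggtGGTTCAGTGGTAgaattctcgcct
RNY4 A: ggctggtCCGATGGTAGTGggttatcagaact

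Few sequences were shared, and each library gave a small fraction of its list. Of 2696564 distinct dog sequences, 14961 (0.555%) were listed in another species. In bat 5276 of 565367 (0.933%) and in horse 15239 of 3560892 (0.428%) were. Dog and horse shared most: 11555 of the 16831 (68.7%) were found in dog and horse alone, 1592 (9.46%) in dog and bat alone, 1870 (11.1%) in bat and horse alone, and 1814 (10.8%) in all 3. The libraries differed in depth, with 40532177 reads of 26 to 32 nt in the dog, 5506080 in the bat and 34335975 in the horse. At the depth of the bat library, the formula for drawing reads gave 1606 expected sequences in common for dog and bat, 3166 for dog and horse, and 1931 for bat and horse. Dog and horse thus also gave the highest number at equal depth, though the horse library then held 1058839 expected distinct sequences, dog 740496 and bat 565367.

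Most shared sequences had few reads. The median shared sequence had 2 reads in the dog, 3 in the bat and 3 in the horse, where the median sequence found in 1 species had 1 read in each library. A total of 3061 shared sequences (18.2%) had a single read in every library that held them, and 1468 (8.72%) had at least 10 reads in each. Sharing became more common with abundance. In dog 0.362% of the sequences with 1 read were shared, against 6.11% (22 of 360) of those with at least 10000 reads. In bat the figures were 0.511% at 1 read and 29.4% (10 of 34) at 10000 reads or more, and in horse 0.233% at 1 read and 7.73% (17 of 220) at 10000 reads or more. Most of the highly read sequences of each testis were thus not listed in another one.

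The lower length limit fell where the shared fraction was declining. At 26 nt 2275 of 797370 sequences (0.285%) were shared and at 27 nt 2640 of 961400 (0.275%), both inside the window, while just outside it 1472 of 482999 (0.305%) were shared at 25 nt and 986 of 236697 (0.417%) at 24 nt. The upper limit of 32 nt is the longest length that the libraries list.

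By reads, the shared sequences took 6.69% of the dog library (6.69 to 6.70%), 9.002% of the bat library (8.98 to 9.03%) and 3.71% of the horse library (3.71 to 3.72%). A few sequences carried these shares: the 10 most read shared sequences held 76.1% of the shared reads in the dog, 57.3% in the bat and 55.0% in the horse. Sequences of all 3 species, 1814 in number, took 5.04% of the reads in dog, 7.33% of those in bat and 2.43% of those in horse. The 11555 sequences of dog and horse alone took 1.41% of the dog reads and 1.17% of the horse reads.

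Shared sequences were joined into a group where they had 20 nt in a row in common on either strand, which collects length variants and shifted fragments of 1 RNA. The 16831 sequences fell into 5119 groups, of which 3395 held a single sequence and 208 held at least 10, together 8468 sequences (50.3%). The largest group held 469. Sequences of a group share their source and are not independent observations. Groups were then matched to well-known RNAs by 122 short stretches of 11 or 12 nt, written from textbook knowledge without a reference to check them against, and by patterns for zinc finger codons, C/D box ends and simple repeats. A match is a description of the letters, not a genomic position. It named 214 groups and left 4905 unnamed.

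Recognised structural RNAs (tRNA, rRNA, snRNA, Y RNA, 7SL, 7SK, U3, miRNA and the C/D box pattern) were 5704 of the shared sequences (33.9%) in 129 groups, but held 78.5% of the shared reads in the dog, 89.0% in the bat and 71.9% in the horse. They made up 85.6% of the sequences found in all 3 species and 18.6% of those found in dog and horse alone. The other 11127 sequences (66.1%), in 4990 groups, held 1.44% of all reads in the dog, 0.989% in the bat and 1.04% in the horse. Of these 11127, 9401 were found in dog and horse alone, 622 in dog and bat alone, 842 in bat and horse alone and 262 in all 3.

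Which structural RNA led the shared reads differed between the libraries. Fragments of tRNA, the adaptors of translation, took 68.9% of the shared reads in the dog, 6.38% in the bat and 53.9% in the horse. Fragments of rRNA took 1.96% in the dog, 74.3% in the bat and 6.90% in the horse. Most of these bat reads were of 5S rRNA, which alone took 0.956% in the dog, 65.0% in the bat and 3.44% in the horse. Among the tRNA fragments, tRNA-Gly-GCC B stood at 32504 RPM in dog, 283 RPM in bat and 4555 RPM in horse, where RPM is the number of reads per 1000000 reads of 26 to 32 nt in that library. Its form shorter by 2 bases, tRNA-Gly-GCC A, stood at 1187 RPM in dog, 893 RPM in bat and 3560 RPM in horse, so the dog excess lay in the longer form.

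Y RNA fragments were the next structural class in dog and horse. Y RNAs are small noncoding RNAs bound by the Ro60 protein. The class held 84 shared sequences, at 4067 RPM in dog, 161 RPM in bat and 3440 RPM in horse. RNY4 A, the 5′ fragment of RNY4, had 3520 RPM in dog, 22.2 RPM in bat and 2792 RPM in horse, a dog over bat ratio of 159 (133 to 191) and a dog over horse ratio of 1.26 (1.25 to 1.27). Reads that overlapped it began at the same base in 99.8% of cases in the dog, 95.5% in the bat and 99.7% in the horse. RNY1 A, the corresponding fragment of RNY1, was found at 287 RPM in dog and 85.9 RPM in horse, and the closest bat sequence had 2 mismatches over 31 nt and 3 reads. RNY3 A was found at 20.7 RPM in bat and 6.41 RPM in horse, and the closest dog sequence had 2 mismatches over 26 nt and 3 reads.

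Spliceosomal snRNA fragments, 766 sequences, were highest in bat, with 735 RPM in dog, 5446 RPM in bat and 280 RPM in horse. The exact sequence U2 snRNA A had 74.7 RPM in dog, 2.54 RPM in bat and 3.49 RPM in horse, but all reads overlapping it summed to 625 RPM in dog, 1200 RPM in bat and 64.1 RPM in horse, so that bat was highest over this stretch too. A fragment of 7SL, the RNA of the signal recognition particle, stood at 2.17 RPM in dog, 27.1 RPM in bat and 4.98 RPM in horse.

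The C/D box pattern, in which ATGATG or GTGATG lies in the first 12 nt and CTGA in the last 8 nt, is that of the ends of C/D box snoRNAs, which guide methylation of rRNA. The groups named by it held 112 shared sequences in 28 groups, 87 of them with a match in their own letters and the others through their group. Their summed levels were 135 RPM in dog, 1676 RPM in bat and 342 RPM in horse. By their own letters on either strand, 0.434% of the shared dog sequences held it, against 0.0762% of the dog sequences found in 1 species. In bat the shares were 1.02% of the shared and 0.124% of the other sequences, and in horse 0.413% of the shared and 0.0782% of the other sequences. CTGA alone in the last 8 nt of either strand was a little more common in shared sequences (8.45% in dog, 11.6% in bat, 8.96% in horse) than in those of 1 species (7.86% in dog, 8.998% in bat, 8.27% in horse). By reads it was less common in the shared ones in dog (3.06%, against 11.0% of the reads of 1 species) and bat (7.16%, against 10.2%). In horse it was 10.5%, against 10.2%. The whole pattern held 0.200% of the shared reads in dog, against 0.239% of the reads of 1 species. It was more common in the shared reads in bat (1.75%, against 0.279%) and horse (0.916%, against 0.397%). C/D box pattern A had 601 RPM in bat and 51.7 RPM in horse, a bat over horse ratio of 11.6 (11.0 to 12.3), and the closest dog sequence had 1 mismatch over 28 nt and 10 reads. C/D box pattern B had 43.8 RPM in dog and 64.5 RPM in bat, and in horse a sequence with 1 mismatch over 26 nt had 37 reads. Identity over the whole length therefore leaves out close relatives of listed members. Trio B, trio E and dog-bat B held CTGA in the last 8 nt, as did the reverse complements of trio D, trio K and dog-horse J. Without the whole pattern they were counted as matching no recognised RNA and outside structural RNA below. Whether they are fragments of snoRNA was not tested.

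Outside the structural RNAs, sequences coding for C2H2 zinc fingers formed the largest recognised class. C2H2 zinc finger genes are a large family of DNA-binding factors, many of which bind transposable elements, and their fingers and linkers repeat with little change. The class held 608 shared sequences in 58 groups, of which 576 were found in dog and horse alone and 9 in all 3. It summed to 2133 RPM in dog, 10.4 RPM in bat and 1068 RPM in horse. Among the shared sequences, 2.91% in the dog, 0.512% in the bat and 2.87% in the horse held the coding pattern in their own letters. Among sequences of 1 species, 0.143% in the dog, 0.0718% in the bat and 0.102% in the horse held it.

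Zinc finger A supplied most of this class. It had 73476 reads (1813 RPM) in dog and 27092 reads (789 RPM) in horse, and it was not listed in bat. The dog over horse ratio was 2.30 (2.27 to 2.33). On the printed strand, overlapping reads had their left end at its first base in 89.8% of cases in dog and 89.7% in horse. They had their right end at its last base in 95.2% in dog and 93.3% in horse, so both ends were nearly fixed in both libraries. Zinc finger B had 31.97 RPM in dog and 9.09 RPM in horse, in a group of 97 sequences, and zinc finger C had 11.4 RPM in dog and 2.42 RPM in horse, in a group of 234 sequences. In these groups 49 of the 72 and 64 of the 102 sequences whose strand was called began with U. In the group of zinc finger A, 7 of the 23 called sequences did. Across the 585 zinc finger sequences of dog and horse, the Spearman correlation of RPM was 0.400, and all 67 whose strand was called in both libraries had the same call.

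The strand was called from length variants: piRNAs have a fixed 5′ end and a variable 3′ end, so the end that at least 80% of at least 10 variant reads had in common was taken as 5′. No base identity enters the call. It covered 57.6% of the reads in the dog, 62.9% in the bat and 51.2% in the horse, and in the shared sequences it gave a strand in at least 1 library, with no conflict between libraries, to 6149 (36.5%) and conflicting ones to 302 (1.79%). Set against the known strand of recognised RNAs, the call was right for 99.8% of the called tRNA reads, 99.8% of the Y RNA reads and all 31 called miRNA sequences. Counted by sequence it was right for 416 of 530 tRNA and 32 of 47 Y RNA sequences, so that calls of little-read sequences are less certain. In bat alone the Y RNA call was right for 199 reads and wrong for 434. For rRNA it was right for 22.4% of the called reads, with 21167 right and 11789 wrong in dog, 40709 right and 293654 wrong in bat, and 32224 right and 19970 wrong in horse. It was right for 28 of 130 called snRNA sequences, and no strand statement is made for rRNA and snRNA on their own. Their calls do enter the values given over all shared sequences. All 3 called U3 snoRNA sequences were called on the wrong strand, so that calls of sequences like snoRNA ends are uncertain.

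Zinc finger sequences were called on the coding strand for 188 of 229 sequences and on the opposite strand for 41. By reads the balance was 8950 on the coding strand and 109492 on the opposite strand, of which 100568 belonged to zinc finger A alone. Its call came from dog only and rests on a sequence with both ends nearly fixed. Without it, 8950 reads lay on the coding strand and 8924 on the opposite strand.

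Sequences of L1, an autonomous retrotransposon, were few and almost all antisense. The class held 44 shared sequences in 5 groups, 34 of them with the L1 stretch in their own letters. Of the 44, 42 were found in dog and horse alone, and the class summed to 131 RPM in dog, 0.363 RPM in bat and 7.66 RPM in horse. The bat level is that of 2 reads, below the level of 0.545 RPM that 3 reads give there. Of the 25 that held the stretch and whose strand was called, 24 were antisense to the element (5256 reads in dog, 206 in horse) and 1 was sense (1 read in dog, 11 in horse). L1 ORF2 A is printed on the strand of the element, and the small RNA called is its complement. L1 ORF2 A had 175 reads (4.32 RPM) in dog and 93 reads (2.71 RPM) in horse, a ratio of 1.59 (1.23 to 2.07). All reads overlapping it summed to 11.6 RPM in dog and 43.9 RPM in horse, so that horse was higher over this stretch. The balance of the exact sequence is not that of the class either, whose dog reads lie mostly in other sequences. L1 ORF2 B had 2676 reads in dog and 23 in horse, a ratio of 98.6 (65.5 to 156). L1 ORF2 D had 426 reads in dog and 2 in horse, a ratio of 180 (49.6 to 1495). By its own letters, the L1 stretch stood in 0.227% of the shared dog sequences, against 0.0248% of those found in dog alone, and in 0.217% of the shared horse sequences, against 0.0175% of those found in horse alone.

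MIR sequences, from a SINE family inserted before the mammalian orders separated, were 74 shared sequences in 12 groups, with 79.6 RPM in dog, 34.1 RPM in bat and 294 RPM in horse. They lay mostly on the sense strand of the stretch used to find them, with 22 sequences and 6202 reads sense, against 5 sequences and 82 reads antisense. MIR A had 59.7 RPM in dog and 23.1 RPM in horse, a ratio of 2.58 (2.38 to 2.80), and it began with U. Reads over MIR A began at its first base in 99.2% of cases in dog and 95.04% in horse. The higher class level in horse lay in other groups: the group of MIR B summed to 0.0247 RPM in dog, 20.7 RPM in bat and 197 RPM in horse, and that of MIR C to 12.5 RPM in bat and 36.7 RPM in horse. MIR D had 0.617 RPM in dog and 5.13 RPM in horse, a ratio of 0.120 (0.0758 to 0.184). Histone coding sequences, the transcripts of replication-dependent histone genes being abundant in dividing germ cells, added 54 shared sequences at 28.9 RPM in dog, 4.36 RPM in bat and 5.50 RPM in horse.

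Of the shared sequences, 10270 (61.0%) matched no recognised RNA. They held 17.96% of the shared reads in the dog, 10.8% in the bat and 24.3% in the horse, and 8660 of them were found in dog and horse alone and 233 in all 3. Among those of all 3 species, trio A stood out in bat: it had 970 reads (23.9 RPM) in dog, 16334 reads (2967 RPM) in bat and 1031 reads (30.03 RPM) in horse. The bat over horse ratio was 98.8 (92.8 to 105), the dog over bat ratio 0.00807 (0.00755 to 0.00861) and the dog over horse ratio 0.797 (0.729 to 0.871). Dog and horse were thus close to each other and bat was far above both. In the 3 libraries the overlapping reads began at the same base, with 99.1% in the dog, 98.6% in the bat and 98.3% in the horse, and the call gave the same strand, with U first and A at position 10. Of the 12 called sequences in its group 11 began with U.

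The lengthened form, trio L, had 4 reads in the dog, 4784 in the bat and 43 in the horse. The last 9 nt of trio C are the first 9 nt of trio A, so that the pair spans 48 nt when joined. Trio C was balanced, with 10.4 RPM in dog, 7.26 RPM in bat and 4.78 RPM in horse, and its group of 39 sequences summed to 261 RPM in dog, 83.5 RPM in bat and 203 RPM in horse. The upstream sequence, trio C, had a bat over horse ratio of 1.52 (1.05 to 2.16), where that of the downstream one was 98.8. No genomic position was used here, so that the join is one of letters only.

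Trio D repeated the bat excess of trio A, and on the strand called it began with G. It had 3.87 RPM in dog, 851 RPM in bat and 10.2 RPM in horse, a bat over horse ratio of 83.7 (75.1 to 93.6). On the strand called, none of the 11 called sequences of its group began with U. Trio K, with 0.518 RPM in dog, 6.17 RPM in bat and 0.379 RPM in horse, began with C on the strand called. Reads over trio K had its left end on that strand in 81.2% of cases in the dog, 95.8% in the bat and 95.8% in the horse. The strand of trio D and trio K is uncertain, since their reverse complements hold CTGA in the last 8 nt. C/D box pattern A in horse and C/D box pattern B in dog were called on the strand opposite to their boxes. On the other strand trio D begins with U and trio K with A. Trio B had 19.5 RPM in dog, 166 RPM in bat and 37.1 RPM in horse, with no strand called. Trio E (2.57 RPM in dog, 13.4 RPM in bat, 3.82 RPM in horse), trio H (6.17 RPM in dog, 5.09 RPM in bat, 1.98 RPM in horse) and trio I (1.70 RPM in dog, 4.72 RPM in bat, 1.57 RPM in horse) completed the leading groups of all 3 species.

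Other sequences of all 3 species were high in dog and horse and near the detection level in bat. Trio G, in a group of 162 sequences, had 134 RPM in dog, 1.998 RPM in bat and 20.7 RPM in horse, a dog over horse ratio of 6.47 (5.98 to 7.002). Trio J had 57.8 RPM in dog, 5 reads (0.908 RPM) in bat and 82.3 RPM in horse, and it belongs to a group of 170 sequences that summed to 658 RPM in dog, 7.45 RPM in bat and 986 RPM in horse. In that group 58 of 100 called sequences began with U. Trio F had similar levels, at 4.86 RPM in dog, 2.54 RPM in bat and 3.32 RPM in horse, but it is a minor product, and its strand was called in horse only. Dog reads that overlapped trio F summed to 4574 RPM, of which 99.1% had their left end 8 nt inside it on the printed strand. Horse reads summed to 275 RPM, of which 65.8% began 8 nt downstream. In bat the overlapping reads summed to 16.5 RPM, and the most common left end, 3 nt outside trio F, held 38.5%.

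Sequences shared by dog and horse alone included both balanced and extreme cases. Dog-horse F had 46.0 RPM in dog and 56.1 RPM in horse, began with U with A at position 10, and 99.7% of overlapping dog reads and 97.0% of overlapping horse reads began at its first base. Dog-horse G had 289 RPM in dog and 43.1 RPM in horse, a ratio of 6.71 (6.36 to 7.09), and the horse reads over it, whose strand was not called, most often had their left end 8 nt inside it (36.6%). Dog-horse E had 86.0 RPM in dog and 392 RPM in horse, a ratio of 0.219 (0.211 to 0.227). It was not listed in bat, yet overlapping bat reads summed to 1986 RPM, against 357 RPM in dog and 653 RPM in horse. On the printed strand, 88.0% of the bat reads had their right end 3 nt inside that of dog-horse E and 53.1% their left end 5 nt outside it, and the strand of these bat reads was not called here. A sequence absent from a library under the identity rule can thus have abundant neighbours there with other ends.

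The most read of these sequences in dog and in horse were nearly private to 1 species. Dog-horse H had 120544 reads (2974 RPM) in dog, 20.6% of the shared dog reads outside structural RNA, and 18 reads (0.524 RPM) in horse, a ratio of 5673 (3589 to 9573). It held none of the stretches used for matching, but 25 of its 28 letters are those of MIR D at the same position, a comparison chosen after the letters were seen. The MIR level in dog given above leaves it out. Dog-horse E was left out too, though its last letters, atctgtaaaatgg, are the first letters of MIR B. Its group summed to 211 RPM in dog and 528 RPM in horse, and whether it stems from MIR was not tested. Dog-horse J had 10 reads (0.247 RPM) in dog and 57763 reads (1682 RPM) in horse. Dog reads overlapping dog-horse J summed to 2162 RPM, of which 98.98% had their left end 2 nt inside it on the printed strand. Of the 3068 RPM of overlapping horse reads 69.2% had the left end and 83.1% the right end of dog-horse J, and the horse strand was not called. Both libraries thus held abundant reads over these bases with different ends. Reads over dog-horse H summed to 4455 RPM in dog and 8.04 RPM in horse and began at its first base in 95.6% of cases in dog and 58.3% in horse. Whether reads passed between libraries during sequencing was not tested.

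In the pairs with bat, dog-bat A had 55.7 RPM in dog and 16.5 RPM in bat, began with U with A at position 10, and 95.2% of overlapping dog reads and 90.1% of overlapping bat reads began at its first base. The closest horse sequence had 4 mismatches over 25 nt and 1 read. Dog-bat B had 12.5 RPM in dog and 30.9 RPM in bat, with strand calls that conflicted. Bat-horse A had 23.6 RPM in bat and 14.1 RPM in horse and began with G, and bat-horse B had 4.18 RPM in bat and 8.39 RPM in horse. All 7 called sequences in the group of bat-horse B began with U, and in dog a sequence with 1 mismatch over 29 nt had 28 reads.

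The length of the shared reads differed between structural and other RNAs. Of the shared reads 62.5% in the dog, 21.8% in the bat and 26.4% in the horse were 32 nt long, against 2.85% (dog), 3.44% (bat) and 5.35% (horse) of the reads found in 1 species. Outside the structural RNAs 1.89% of the shared reads were 32 nt long in the dog, 1.18% in the bat and 2.54% in the horse. There, lengths of 29 and 30 nt held 53.4% in the dog, 58.5% in the bat and 51.7% in the horse, and 28 nt held 29.1% in the dog, 11.2% in the bat and 22.6% in the horse. Reads of 1 species were 28 nt long in 11.2% of cases in the dog, 10.5% in the bat and 9.45% in the horse. The excess at 28 nt in dog and horse coincides with dog-horse H and dog-horse J, which are both 28 nt long and held 20.6% of these reads in dog and 16.1% in horse.

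The first base likewise separated both kinds in dog and horse. Over all shared reads with a called strand, U came first in 18.6% in the dog, 13.4% in the bat and 18.8% in the horse. These shares include rRNA and snRNA, whose calls are unreliable. In bat 293654 rRNA reads were called on the wrong strand and 40709 on the right one, where the called shared reads were 437881. The bat share of 13.4% therefore cannot be read as one of 5′ ends. Over the shared sequences outside structural RNA, U came first in 71.4% of the called reads in the dog (71.3 to 71.5%), 70.0% in the bat (69.6 to 70.4%) and 59.3% in the horse (59.0 to 59.6%). Among called reads found in 1 species the shares were 70.2% in the dog, 80.2% in the bat and 80.01% in the horse. Single sequences weigh on these shares. Without dog-horse H the dog share was 61.8%, and without the 3 most read it was 75.6%. Without trio A the bat share was 53.0%, and without the 3 most read it was 54.3%. The 3 most read in bat include trio D, whose strand is uncertain. In horse the 3 most read had no called strand.

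With each sequence counted once, U came first in 62.4% (60.3 to 64.5%) of the 2045 called non-structural shared sequences in the dog, 46.0% (41.0 to 51.0%) of 400 in the bat and 64.6% (62.6 to 66.6%) of 2189 in the horse. The sequences found in 1 species gave 52.2% in the dog, 59.4% in the bat and 58.2% in the horse. Shared sequences were thus above those of 1 species in dog and horse and below them in bat. At 100 reads or more, the shares were 73.6% of 201 in the dog, 45.2% (27.3 to 63.97%) of 31 in the bat and 77.4% of 133 in the horse, against 69.9% (dog), 80.8% (bat) and 80.5% (horse) of the sequences of 1 species, so that in horse the order turned round. Zinc finger sequences began with U in 70.0% of 227 in dog and 73.6% of 144 in horse. By reads, U came first in 6.30% and C in 93.5% of the 83114 called zinc finger reads in dog. Most of those reads were of zinc finger A, whose call is uncertain and which begins with U on neither strand. In horse, where zinc finger A had no call, U came first in 93.9% of 2897 called reads. A stood at position 10 in 37.5% of the called non-structural shared sequences in the dog, 31.8% in the bat and 36.6% in the horse, against 34.6% (dog), 26.6% (bat) and 31.3% (horse) of the sequences of 1 species. By reads the share was 33.6% (dog), 67.1% (bat) and 37.6% (horse), against 37.0% (dog), 25.2% (bat) and 33.3% (horse) of the reads of 1 species, so that the order in dog turned round. Sequences of a group are related, so these intervals are too narrow for independent RNAs.

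Levels of the shared sequences were within 2-fold between dog and horse more often than in the pairs with bat. Across the 13369 sequences of dog and horse, which belong to 4498 groups, the Spearman correlation of RPM was 0.487 and Pearson's r of log10 RPM 0.618. Across the 3406 of dog and bat, in 485 groups, the Spearman value was 0.222 and Pearson's r 0.292, and across the 3684 of bat and horse, in 642 groups, 0.273 and 0.334. These are descriptions across sequences that share libraries and sources. With 1 leading sequence per group the order turned round, at 0.443 for dog and horse, 0.510 for dog and bat and 0.485 for bat and horse. That sequence was the one with the highest lower RPM of the pair, a choice made on the values correlated. These coefficients therefore cannot be read as agreement beside those over all sequences. Levels were within 2-fold for 46.3% of the sequences of dog and horse, 14.5% of those of dog and bat, and 15.3% of those of bat and horse. These shares depend on depth, since equal read numbers lie within 2-fold in RPM for dog and horse but not in the pairs with bat. With at least 10 reads in both libraries they were 45.2%, 10.8% and 13.7%, where the same minimum again stands for a higher RPM in bat.

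Large differences ran towards bat, where 1 read is 0.182 RPM, against 0.0247 RPM in dog and 0.0291 RPM in horse, so that a single read gives a higher RPM in bat than in the others. Of the 3406 sequences of dog and bat, 88 (2.58%) were at least 10-fold higher in dog and 1337 (39.3%) at least 10-fold higher in bat. Of the 13369 of dog and horse, 312 (2.33%) were at least 10-fold higher in dog and 777 (5.81%) in horse. Of the 3684 of bat and horse, 1258 (34.1%) were at least 10-fold higher in bat and 98 (2.66%) in horse.

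Structural RNA of dog and horse was closer in rank, while the order in level depended on the read minimum. The Spearman correlation was 0.690 over the 3706 structural sequences of dog and horse and 0.383 over the other 9663. Of the structural sequences 41.6% were within 2-fold and of the others 48.2%, with median dog over horse ratios of 0.495 and 0.847. With at least 10 reads in both libraries this turned round, at 46.4% of the structural and 43.8% of the other sequences. In the pairs with bat both kinds were similar when all sequences entered. The values were 0.219 over structural and 0.244 over other sequences of dog and bat, and 0.220 and 0.279 over those of bat and horse. With at least 10 reads in both libraries, the non-structural sequences gave 0.377 over 712 in dog and horse, 0.0209 over 59 in dog and bat and -0.0318 over 77 in bat and horse. The structural sequences then gave 0.690 over 849 in dog and horse, 0.294 over 301 in dog and bat and 0.204 over 332 in bat and horse. In both pairs with bat the non-structural coefficients thus lay near 0 and below the structural ones.

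Among leading sequences of groups with at least 10 RPM in both species, the ratios furthest from 1 belonged to a few RNAs. Dog over bat was highest for RNY4 A, then for tRNA-Val-CAC B (3086 RPM in dog, 53.4 RPM in bat) and tRNA-Glu-TTC A (522 RPM in dog, 13.3 RPM in bat), and lowest for trio A, then for 28S rRNA A (22.0 RPM in dog, 1105 RPM in bat) and trio B. Dog over horse was highest for tRNA-Gly-GCC B at 7.14 (7.10 to 7.17), dog-horse G and trio G, and lowest for tRNA-Leu-CAG A at 0.205 (0.186 to 0.224), dog-horse E and tRNA-Glu-TTC A at 0.224 (0.221 to 0.227). Bat over horse was highest for trio A, trio D and C/D box pattern A, and lowest for tRNA-Glu-TTC A at 0.00569 (0.00446 to 0.00716), RNY4 A and tRNA-His-GTG B at 0.0103 (0.00801 to 0.0130).

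The strand on which a shared RNA was listed varied between the files. Of the sequences of dog and bat 42.0% were listed on opposite strands, of those of dog and horse 49.0% and of those of bat and horse 53.8%. Where the strand was called in both libraries, the calls gave the same sense for 436 of 518 sequences (84.2%) of dog and bat, 1459 of 1617 (90.2%) of dog and horse and 443 of 521 (85.0%) of bat and horse. A search for identical letters alone would thus miss many shared RNAs.

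The ends of the shared RNAs were compared over the leading sequence of each group with at least 1 RPM in both species. Ends are those on the strand of the matched RNA, else on the called strand, else on the first strand in alphabetical order. The left end is therefore not always the 5′ end. Outside the structural RNAs the most read left end was the same base in 12 of 16 groups of dog and bat, 42 of 65 of dog and horse and 13 of 20 of bat and horse. For structural RNAs it was the same in 17 of 23 groups of dog and bat, 29 of 35 of dog and horse and 16 of 17 of bat and horse. The most read right end outside structural RNA was the same in 9 of 16 groups of dog and bat, 42 of 65 of dog and horse and 8 of 20 of bat and horse. The most read length outside structural RNA was the same in 41 of 65 groups of dog and horse. Since the leading sequence was chosen for being present in both libraries, these counts describe the groups and do not measure conservation of ends.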

How the data were processed

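Small RNA from 1 testis library each of dog, bat and horse was used, and the mRNA libraries were not used here. The authors deposited, for each library, distinct sequences of 24 to 32 nt with a raw read count. The submitters' processing notes name Bowtie, RSEM and CanFam3.1 for all samples, without versions, and what each was used for, the trimming and the builds for bat and horse were not given in the sources used here. A file's total is the number of listed reads, not the depth of the library.

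Identical entries were summed and a sequence and its reverse complement were treated as 1. Counts were divided by the reads of 26 to 32 nt (40532177 in dog, 5506080 in bat, 34335975 in horse) to give RPM, reads per 1000000 such reads, so that 3 reads are 0.0740, 0.545 and 0.0874 RPM. Because the strand of listing varies, sequences were linked step by step to the most read sequence with the same first or last 24 nt, and the strand was called where 80% of at least 10 variant reads had 1 end in common. Members with 20 nt in a row in common formed a group, named by the class most common among its matched members. No reference sequence of these RNAs was used.

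Named sequences were the 12 groups of all 3 species with the highest lowest RPM and no tRNA, rRNA or miRNA match, the leading group of each class, the 4 leading groups of each pair absent from the other species, and the 3 largest ratios in each direction at 10 RPM or more in both. The most read sequences outside structural RNA, the leading groups within each class, the largest groups, the stretches used for matching and the split into structural and other RNA were chosen after their values were seen. The members and lists were chosen with earlier results of these data known. No test between species was made. The scripts (Python 3.11.15, pandas 2.3.3, NumPy 2.4.6, SciPy 1.17.1, numba 0.67.0) were tested on simulated data. Alternatives changed the strand rule, the read minimum, the RNA classes, the counting of groups, the mismatches allowed, the scale and the depth. The sequences and values of some members are not reported here.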

Additional observations from a re-analysis of the deposited data

How the results depend on the processing

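The numbers of shared sequences depend on the rule, and 48 of 60 alternative values moved. The other 12 stayed within 1.5-fold for counts, within the exact interval for shares, or within 0.1 for correlations. Against 16831 shared sequences, identity as listed gave 9346, at least 2 reads in each library 7904, at least 10 reads 1878, and groups counted once 5119. Among sequences of at least 100 reads, 1 allowed mismatch gave 590. Against 1814 in all 3 species, the same alternatives gave 574, 991, 226, 193 and 78, and leaving out tRNA, rRNA and miRNA gave 538. Chosen after seeing the data were identity at 100 reads (276 shared, 37 in all 3), leaving out all recognised structural RNA (11127 and 262) and the expected number at the bat depth (5187 and 758). These counts fall by the construction of each alternative, since fewer sequences or reads enter.

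The share of reads in shared sequences in dog, 6.69%, was 5.28% as listed, 1.94% without tRNA, rRNA and miRNA, 6.29% at 10 reads or more and 1.44% without structural RNA. In bat, 9.002% became 3.002%, 1.74%, 7.66% and 0.989% under these 4 settings, and in horse 3.71% became 1.20%, 1.46%, 3.31% and 1.04%. The first-base U share of oriented shared reads was 18.6% in dog, and 15.97% with 95% of variant reads on 1 end, 14.7% as listed, 54.8% without tRNA, rRNA and miRNA, 46.7% with each sequence once and 71.4% without structural RNA. In bat it was 13.4%, and 40.5%, 12.5%, 58.8%, 31.05% and 70.0% under these settings. In horse it was 18.8%, and 12.7%, 14.1%, 28.02%, 47.9% and 59.3%. The shares of oriented reads include rRNA and snRNA except where these classes were left out, and most called bat rRNA reads were on the wrong strand. The bat value of 13.4% therefore cannot be read as a share of 5′ ends. The cause of the bat value of 40.5% was not tested.

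The Spearman correlation of RPM was 0.222 between dog and bat and 0.510 with 1 leading sequence per group. Between bat and horse it was 0.273, 0.485 with 1 leading sequence per group and 0.172 at 10 reads or more. Between dog and horse it was 0.487, 0.443 with 1 leading sequence per group and 0.383 without structural RNA. With 1 leading sequence per group dog and horse thus had the lowest of the 3 correlations instead of the highest, and the cause was not tested. The leading sequences were chosen by the RPM values then correlated, so this order cannot be read as one of agreement. No paired analysis was possible because each species had 1 library and no test was made. Depth limits what can be said of absence, above all in bat, where 3 reads are 0.545 RPM.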
